A study of Homo sapiens with 20 samples.

Results

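Senescent cells 7 days after irradiation were compared directly with non-irradiated cells in which NFKBIA had been knocked down. Both groups are U2-OS, a human osteosarcoma cell line grown in DMEM with 10% fetal calf serum. The 7 days post-IR group (5 libraries) received a single dose of 20 Gy, and no genetic change is named for it. The NFKBIA knockdown group (5 libraries) carried an shRNA against NFKBIA and received 0 Gy. These 10 of 20 RNA-seq libraries were chosen by their labels, and all genes of the table were taken in. The other libraries came from untreated cells and from cells at 1.5 h post-IR, with 5 in each group. The untreated libraries are named below only as a common reference point. The methods describe shRNA vectors selected with puromycin, in part induced by doxycycline, and scrambled shRNA controls. The figure legends of the study give the RNA-seq knockdown as an inducible shRNA in cells treated with doxycycline beforehand. No library used here is labelled as a scrambled control, and the labels of untreated cells name no vector. The effect of the knockdown, of the vector, of doxycycline and of selection can therefore not be told apart against untreated cells. The same holds against cells at 7 days, whose labels name no vector either.

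NFKBIA encodes IκBα, which holds NF-κB dimers in the cytoplasm and is itself a target gene of NF-κB, so that a rise in NF-κB activity normally restores its own inhibitor. Senescent cells have left the cell cycle for good, usually with active p53 and its target p21, and many of them secrete cytokines, proteases and growth factors, the senescence-associated secretory phenotype (SASP). Loss of IκBα frees NF-κB without a DNA break. The 2 groups thus differ in whether DNA damage was inflicted, in how NF-κB could become active, in the shRNA and, as described, in doxycycline.

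Sequencing depth was alike, with 27547705 to 34307447 counts per library at 7 days and 26693224 to 33461262 in the knockdown. The 50 most abundant genes took 9.35 to 9.6% of the counts at 7 days and 8.82 to 9.0% in the knockdown. At least 1 count was present for 17431 to 17571 genes at 7 days and for 16494 to 16726 genes in the knockdown, with no overlap between the groups. The median correlation of a library with the others of its group was between 0.9957 and 0.9969 in both groups, and no pair of libraries agreed within sampling noise. In a principal component analysis of the 500 most variable genes, the first component (75.2% of the variance) placed the 7 days libraries at 41.32 to 44 and all others at -18.05 to -11.22. The second component (14.4%) placed the knockdown libraries at -19.86 to -15.38, below all others. Of the untreated libraries, replicate 5 stood apart with the lowest depth, 22535659 counts, and a median correlation of 0.9785. The 7 days libraries were run on lanes 4 and 5 and the knockdown libraries on lanes 5 and 6, so that only lane 5 held both (3 libraries against 1). Values from lane 5 alone are given beside some of the results that they moved and beside named genes whose call they changed. List medians that moved with lane are collected in a closing section. Values without untreated replicate 5 are given beside the contrasts with untreated cells where they changed a count or a call.

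NFKBIA itself separated the groups. At 7 days its level was 30.4, 28.4, 32.4, 32.0 and 30.5 CPM (counts scaled to a common library size by TMM). In the knockdown it was 13.0, 11.2, 12.1, 12 and 12.4 CPM. The lowest 7 days library was thus above the highest knockdown library. The difference was 1.34 on the log2 scale (SE 0.11, edgeR quasi-likelihood test, adjusted p = 1.15e-09) and 1.27 within lane 5. The untreated libraries averaged 31.3 ± 7.25 CPM (SD, n = 5), so that NFKBIA differed from untreated cells by -0.02 at 7 days and by -1.36 in the knockdown on the log2 scale. Transcript of the inhibitor gene was thus called lower than in untreated cells in the knockdown and not called changed at 7 days (plot of levels by library).

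**Figure D1:**
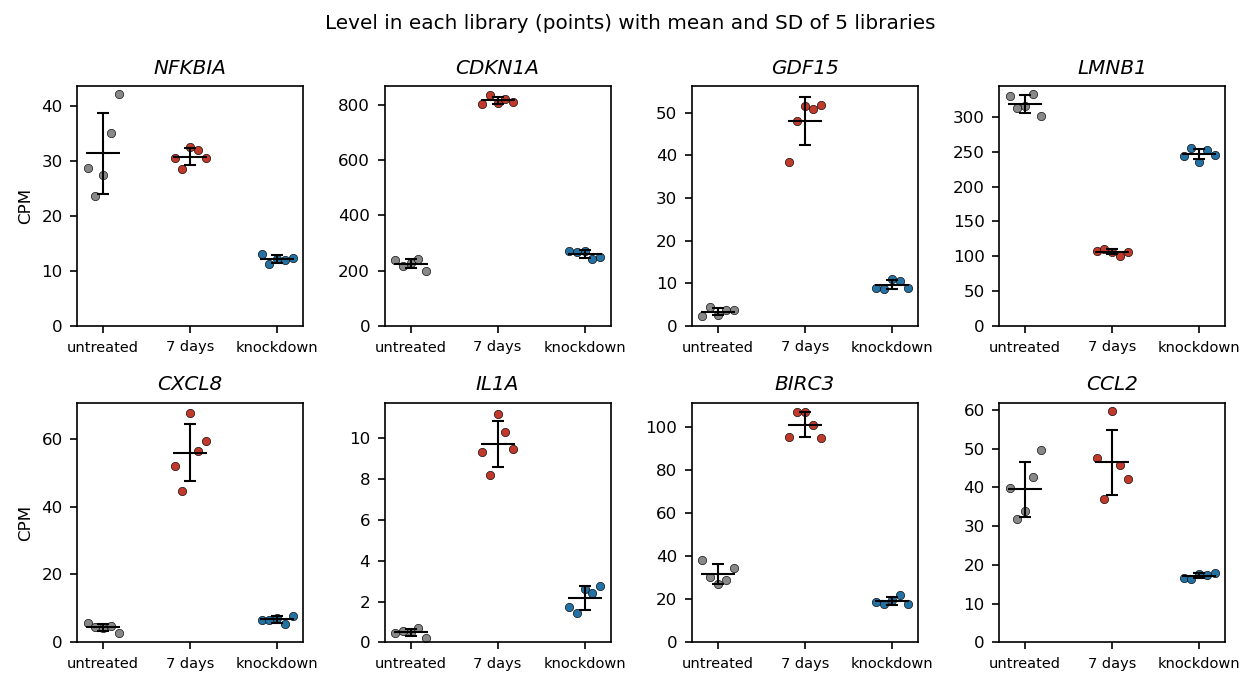
Levels in CPM (vertical axis, from 0) of 8 genes in every untreated, 7 days post-IR and NFKBIA knockdown library; points are libraries, bars the mean and SD of 5. NFKBIA and CCL2 are low in the knockdown alone, whereas CDKN1A, GDF15, CXCL8, IL1A and BIRC3 are highest and LMNB1 lowest at 7 days.

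Of 14992 genes tested, 2374 (15.8%) were called higher at 7 days than in the knockdown and 1483 (9.89%) were called lower, together 3857 genes (25.7%). A call required a log2 fold change over 0.5 in size and an adjusted p under 0.05. A log2 fold change over 1 was reached by 1116 genes called higher and 415 called lower, and one over 3 by 150 and 20 genes. For 9097 genes (60.7%) the libraries of one group lay wholly above those of the other, so that separation of the libraries alone is common here and says little about a single gene. Within lane 5, 2351 genes were called higher and 1468 lower, of which 2028 and 1247 were among the genes called with all libraries. For comparison, 2505 genes (16.7%) were called higher and 2152 (14.4%) lower at 7 days than in untreated cells, and 777 (5.18%) higher and 1129 (7.53%) lower in the knockdown than in untreated cells. Without untreated replicate 5 these counts were 2470, 2138, 759 and 1039. These contrasts share the untreated libraries and are given side by side only.

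Genes called higher at 7 days had a median level of 9.06 CPM at 7 days and 3.96 CPM in the knockdown. Genes called lower had medians of 9.4 and 16.9 CPM. Genes that were not called were more abundant, with medians of 37.5 and 37.4 CPM. The median length of the gene models was 4800 bases for genes called higher, 4350 for genes called lower and 4690 for all genes tested. For 55 of the 2374 genes called higher, each knockdown library had 3 counts or fewer, and for 21 of them this also held in each untreated library. The opposite, 3 counts or fewer in each 7 days library, held for 7 of the 1483 genes called lower. Genes at such counts in a group could pass the filter only through other groups.

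**Figure D2:**
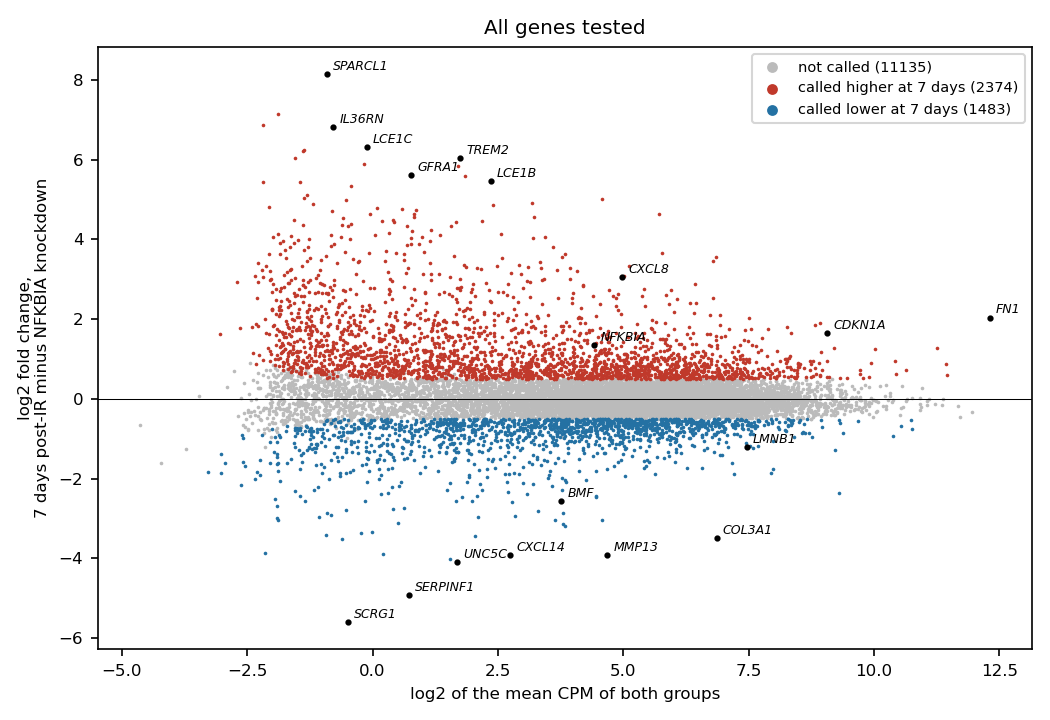
Log2 fold change of 7 days post-IR minus NFKBIA knockdown (vertical axis) against the log2 of the mean CPM of both groups (horizontal axis) for the 14992 genes tested, with 2374 called higher in red and 1483 called lower in blue. The largest rises lie among genes of low level, whose fitted values depend on the prior count where the knockdown libraries hold 3 counts or fewer, whereas COL3A1 and FN1 changed at high levels.

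The largest rises and falls were ranked among called genes with a symbol, non-overlapping libraries and at least 1 CPM in the higher group. The 10 largest rises were in SPARCL1, IL36RN, LCE1C, TREM2, PRR9, PNLIPRP3, GFRA1, LINC01164, LCE1B and BNC1. TREM2, a receptor of macrophages and microglia, was measured at 4.33, 8.38, 7.35, 6.03 and 6.98 CPM at 7 days and at 0, 0.091, 0.179, 0.11 and 0.106 CPM in the knockdown. Its difference was 6.04 on the log2 scale (SE 0.34, adjusted p = 3.99e-12, edgeR), with 0 counts in the one knockdown library of lane 5. LCE1B, a late cornified envelope gene, was measured at 9.01 to 10.7 CPM at 7 days and at 0.152 to 0.33 CPM in the knockdown, a difference of 5.46 (SE 0.23). LCE1B and LCE1C belong to a family of similar genes in one cluster, among which reads may be shared. PNLIPRP3, a gene related to pancreatic lipase, differed by 5.84 (SE 0.26). GFRA1, a co-receptor for GDNF, differed by 5.62 (SE 0.26), and the non-coding LINC01164 by 5.59 (SE 0.22). Within lane 5 the last 3 differed by 5.09, 4.85 and 4.84. All were near 0 in the knockdown, and LINC01164 was the only one of these 5 genes above 0.5 CPM in untreated cells, at a mean of 0.871 CPM.

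For the other large rises the knockdown libraries held too few counts for a fitted fold change. SPARCL1, a matrix glycoprotein related to SPARC, was measured at 0.859 to 1.3 CPM at 7 days and with 0 counts in each knockdown library, which made it at least 11.1-fold higher against a floor of 3 counts per library. SERPINB2, which encodes plasminogen activator inhibitor-2, also had 0 counts in the knockdown and was at least 5.62-fold higher at 7 days. IL36RN, the antagonist of the IL-36 receptor, had 185 counts in all at 7 days and 1 in the knockdown. For LCE1C the ratio was 94.8 (95% interval 32.1 to 462.0) from 292 and 3 counts. For PRR9 it was 67.4 (26.0 to 249.0), and for BNC1, a zinc finger factor of keratinocytes, 45.4 (19.2 to 141.0). These exact intervals cover counting error only.

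The 10 largest falls were of a different make. Some were genes that the knockdown raised above the untreated level. SCRG1 was measured at 0.971 to 1.7 CPM in the knockdown and at 0 to 0.0577 CPM at 7 days, a ratio of 55.2 in favour of the knockdown (95% interval 21.2 to 204.0, counting error only). MMP13, a collagenase, was measured at 42.8, 46.5, 44.7, 54.3 and 52.0 CPM in the knockdown and at 3.07, 3.19, 3.0, 3.9 and 2.72 CPM at 7 days. It thus fell by 3.91 against the knockdown (SE 0.13, adjusted p = 5.63e-16, edgeR), at an untreated mean of 7.47 CPM. UNC5C, a netrin receptor, and KHDRBS2, an RNA-binding protein, fell by 4.11 and 4.02 (log2), and both were called higher in the knockdown than in untreated cells. ENOX1 was at 6.52 to 8.01 CPM in the knockdown and at 0.585 to 0.791 CPM at 7 days, close to the untreated mean of 0.567 CPM.

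SERPINF1, which encodes the anti-angiogenic factor PEDF, was at 2.63 to 3.83 CPM in the knockdown, 1.08 to 2.52 CPM in untreated cells and 0.0609 to 0.164 CPM at 7 days. It fell by 4.93 (SE 0.32) against the knockdown, which was itself called higher than untreated cells (0.86, SE 0.19).

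The other 4 large falls were in genes that were lower at 7 days than in untreated cells and were not raised by the knockdown. COL3A1, the chain of type III collagen, was measured at 19.2, 16.1, 18.1, 19.1 and 22.7 CPM at 7 days and at 240, 211, 222, 191 and 204 CPM in the knockdown, against 213.4 CPM in untreated cells. It fell by 3.49 (SE 0.12, adjusted p = 1.27e-15, edgeR) and did not differ between knockdown and untreated cells by more than 0.5. CXCL14, a chemokine of epithelia and fibroblasts, was at 0.634 to 1.02 CPM at 7 days and 11.2 to 15.1 CPM in the knockdown, both below the untreated mean of 60.9 CPM. FOXS1 fell by 3.88 (SE 0.37) and MYL4 by 3.37 (SE 0.26) against the knockdown. CXCL14, FOXS1 and MYL4 were themselves called lower in the knockdown than in untreated cells (-2.27, -1.17 and -1.43 on the log2 scale). For all of these 20 genes the groups were fully separated, as the rule that named them required.

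**Figure D3:**
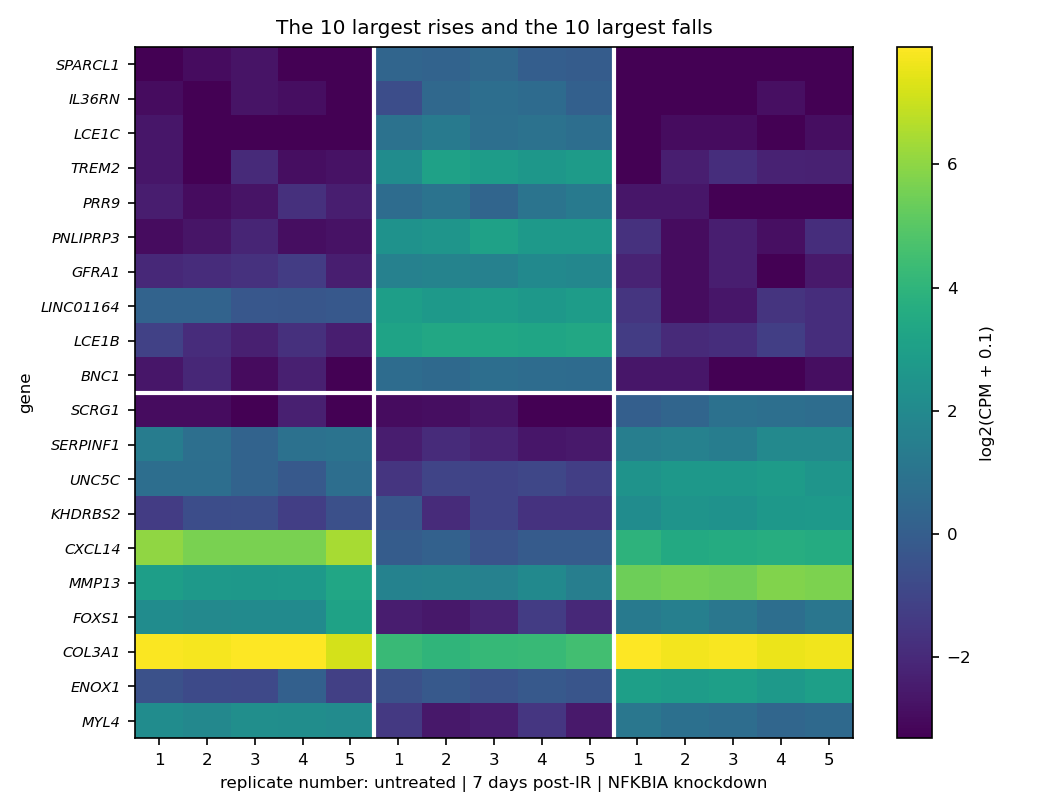
Log2(CPM + 0.1) as colour for the 10 largest rises (upper block) and the 10 largest falls (lower block) in each library of 3 groups, numbered by replicate on the horizontal axis. The rises are brightest at 7 days post-IR, and LINC01164 has an intermediate level in untreated cells, whereas the falls either are brightest in the knockdown (SCRG1, SERPINF1, UNC5C, KHDRBS2, MMP13, ENOX1) or are dim at 7 days without being raised in the knockdown (COL3A1, CXCL14, FOXS1, MYL4).

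The next question was whether the arrest genes of senescence were present in both states. Of 30 listed p53 targets of arrest, repair and feedback, 29 were tested. At 7 days 27 of them (93.1%) were higher than in the knockdown and 0 were lower, beside 15.8% and 9.89% of all genes tested. Their median log2 fold change was 0.91, beside 0.00 for all genes tested. CDKN1A, which encodes the CDK inhibitor p21, was measured at 805, 837, 807, 823 and 811 CPM at 7 days and at 271, 267, 272, 243 and 249 CPM in the knockdown. The gap between the groups was far wider than the spread within them, at 1.65 on the log2 scale (SE 0.05, adjusted p = 4.33e-16, edgeR) and 1.58 within lane 5. MDM2, the ubiquitin ligase that limits p53, was at 690 to 719 CPM at 7 days and at 192 to 209 CPM in the knockdown (1.84, SE 0.04). PADI4, a p53-induced deiminase, had the largest change of the list at 2.92 (SE 0.11). GDF15, a secreted stress cytokine, was at 38.5, 48.0, 51.5, 50.9 and 51.7 CPM at 7 days and at 8.92, 8.73, 11, 10.6 and 8.96 CPM in the knockdown. It was 1 of the 3 p53 targets that the knockdown also raised, by 1.54 (log2) over untreated cells. Against untreated cells 27 listed genes were higher at 7 days and 3 in the knockdown (26 and 2 without untreated replicate 5), with medians of 1.12 and 0.16. Among all genes tested 16.7% and 5.18% were called higher in these contrasts. BAX (0.33) and SERTAD1 (0.29) were not called, at intervals of 0.17 to 0.48 and -0.02 to 0.60.

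Among 6 CDK inhibitors tested, CDKN1A was the only one called higher at 7 days (16.7%, beside 15.8% of all genes tested). The number called lower was 4 (66.7%, beside 9.89%). CDKN1B, which encodes p27, was at 24.1 to 26.1 CPM at 7 days and at 59.9 to 66.0 CPM in the knockdown and fell by 1.30 (SE 0.05). CDKN2C, which encodes p18, fell by 1.24 (SE 0.07) and CDKN1C, which encodes p57, by 1.01 (SE 0.11). CDKN2B differed by 0.47, under the threshold. CDKN2A, the locus of p16 and ARF, had 5 counts in all 7 days libraries together and 0 in the knockdown libraries and was not tested.

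Genes of cell division were lower at 7 days as a group. Of 35 mitotic genes tested, 30 were lower (85.7%) and 0 higher, beside 9.89% and 15.8% of all genes tested. Their median was -0.74. KIF20A, a kinesin of cytokinesis, was at 60.8, 63.7, 61.1, 59.5 and 57.7 CPM at 7 days and at 149, 150, 140, 141 and 138 CPM in the knockdown, a fall of 1.25 (SE 0.05, adjusted p = 1.36e-14, edgeR). CDC20, an activator of the anaphase-promoting complex, fell by 1.12 (SE 0.07). MKI67, which encodes the proliferation antigen Ki-67, was at 255 to 279 CPM at 7 days and at 461 to 531 CPM in the knockdown (-0.86, SE 0.23, adjusted p = 0.00265). Each of these transcripts was still measured above 50 CPM at 7 days. In bulk RNA, fewer dividing cells and less transcript per cell cannot be told apart. Against untreated cells the median of the mitotic list was -1.11 at 7 days, with 34 genes lower. In the knockdown it was -0.37, with 7 genes lower (5 without untreated replicate 5). Among all genes tested 14.4% and 7.53% were called lower in these contrasts. MKI67 in untreated cells was at 657, 768, 801, 434 and 1820 CPM, so that the highest value came from replicate 5 and the groups overlapped. Its difference of -0.88 between knockdown and untreated cells was called, and without that library it was -0.47 (SE 0.11) and not called.

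The S phase genes had a smaller median difference. Of 34 DNA replication genes 10 were lower (29.4%) and 0 higher at 7 days, beside 9.89% and 15.8% of all genes tested. Their median was -0.41. GINS2, a subunit of the replicative helicase, was at 39.5 to 44.5 CPM at 7 days and at 75.4 to 83.8 CPM in the knockdown (-0.93, SE 0.09). MCM6, a further helicase subunit, fell by 0.72 (SE 0.07), and MCM2 by 0.44, which did not reach the threshold. Against untreated cells 24 replication genes were lower at 7 days and 2 in the knockdown (23 and 1 without untreated replicate 5), beside 14.4% and 7.53% of all genes tested. Of 36 genes of homologous recombination and the Fanconi pathway, 1 was higher (RAD51C, 0.69) and 2 were lower (FANCC, -0.72, and BLM, -0.54), with a median of -0.28. These shares of 2.78% and 5.56% were below those of all genes tested (15.8% and 9.89%).

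Of 21 cyclins, CDKs and E2F factors of G1 and S phase tested, 3 were higher (14.3%, beside 15.8% of all genes tested), 6 were lower (28.6%, beside 9.89%) and 12 were not called. E2F7, 1 of the 3 higher, was at the threshold (0.52) and under it within lane 5 (0.48). CCND1, which encodes the G1 cyclin D1, was at 664 to 729 CPM at 7 days and at 297 to 306 CPM in the knockdown (1.19, SE 0.05), and CCND2 was 1.99-fold higher. CCNA2, the cyclin of S and G2 phase, fell by 0.84 (SE 0.05), E2F2 by 0.89 (SE 0.07) and SKP2, the ubiquitin ligase subunit that targets p27, by 0.88 (SE 0.06).

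Transcripts of nuclear structure genes were compared in the same way. Of 25 genes of lamins, HMG proteins and heterochromatin, 12 were lower (48%), 1 was higher (4%) and 12 were not called. Among all genes tested 9.89% were lower and 15.8% higher. LMNB1, which encodes lamin B1 and is widely used as a senescence marker by its loss, was at 108, 111, 106, 101 and 106 CPM at 7 days and at 236 to 255 CPM in the knockdown. It fell by 1.21 (SE 0.04, adjusted p = 2.02e-15, edgeR), and the untreated mean was 318.8 CPM. LBR, the lamin B receptor, was at 78.4 to 84.0 CPM at 7 days and at 152 to 166 CPM in the knockdown. HMGB1 fell by 0.88 (SE 0.08) and HMGB2 by 0.67 (SE 0.07). LMNA, which encodes lamins A and C, was at a mean of 387.8 CPM at 7 days and 390.4 CPM in the knockdown (-0.01, interval -0.17 to 0.15). Of 55 listed replication-type histone genes only 24 were in the table and 13 were tested, and 1 was higher (7.69%) and 4 were lower (30.8%), beside 15.8% and 9.89% of all genes tested. HIST2H2AC, 1 of the 4 (-0.92), did not pass the test within lane 5 (-1.25). These histone messages end without a poly(A) tail, which an mRNA library captures poorly.

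Promoter sequences of RefSeq (build GRCh38.p14, 250 bases before to 50 bases after the start) were matched to 11550 of the 14992 genes tested. TTTGAA, the core of the cell cycle homology region bound by the DREAM complex, was found on either strand in 22 of 30 promoters of mitotic genes (73.3%). It was found in 14.6% of the promoters of genes called lower, 11.6% of genes called higher, 10.3% of all genes tested and 15.2% of all 35116 promoters in the table. CCAAT, the box bound by NF-Y, was found in 76.7% of the mitotic promoters and in 36.1% of those of all genes tested. GGNNTTTCC, letters of an NF-κB site, was found in 13 of 31 promoters of NF-κB target genes (41.9%), in 7.52% of those of genes called higher, 5.39% of genes called lower, 6.58% of all genes tested and 6.26% of all promoters in the table. CCAAT was found in 35.6% and 36.7% of the promoters of genes called higher and lower and in 34.6% of all promoters in the table. None of these motifs contains another, and a match does not show a site in use. Stretches upstream of the start are shown for 4 mitotic genes that fell, on the strand of the gene, with the match in capitals, at chr1:43358891-43358946 (CDC20), chr16:23678835-23678888 (PLK1), chr15:59105092-59105145 (CCNB2) and chr2:26786013-26786055 (CENPA).
CDC20: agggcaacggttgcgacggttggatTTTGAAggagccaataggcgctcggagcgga
PLK1: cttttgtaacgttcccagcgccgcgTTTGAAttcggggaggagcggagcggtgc
CCNB2: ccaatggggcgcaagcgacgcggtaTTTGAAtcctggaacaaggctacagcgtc
CENPA: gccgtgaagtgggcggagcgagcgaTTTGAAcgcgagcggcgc

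Stretches with the NF-κB letters in capitals are shown for 3 target genes that were higher at 7 days and for ICAM1, which was not called. They lie at chr4:73740453-73740511 (CXCL8), chr7:22727103-22727161 (IL6), chr11:102317260-102317318 (BIRC3) and chr19:10270909-10270967 (ICAM1), all on the plus strand of GRCh38.p14.
CXCL8: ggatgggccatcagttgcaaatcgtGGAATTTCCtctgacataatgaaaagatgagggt
IL6: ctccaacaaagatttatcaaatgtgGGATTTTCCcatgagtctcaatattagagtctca
BIRC3: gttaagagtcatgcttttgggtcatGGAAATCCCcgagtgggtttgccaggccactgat
ICAM1: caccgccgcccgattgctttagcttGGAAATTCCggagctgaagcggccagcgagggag

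The NF-κB system itself was compared next. Of 23 subunits, inhibitors and kinases tested, 9 were higher (39.1%) and 0 were lower at 7 days than in the knockdown, with a median of 0.44. This stood beside 15.8% higher and 9.89% lower among all genes tested. NFKBIA, the targeted gene, is 1 of the 9. RELB, a subunit of the non-canonical pathway, was at 46.0, 49.9, 51.6, 47.7 and 50.5 CPM at 7 days and at 22.4, 21.4, 21.0, 22.6 and 21.7 CPM in the knockdown (1.17, SE 0.12, adjusted p = 3.44e-08, edgeR). RELA, which encodes p65, was at 118 to 123 CPM and at 115 to 122 CPM, so that the groups overlapped (0.03, interval -0.22 to 0.29). Untreated replicate 5, which shares the fit, was at 216 CPM. The SE of RELA for 7 days against untreated cells was 0.12 with that library and 0.03 without it. NFKB1 differed by 0.13 (interval 0.01 to 0.25) and NFKB2 by 0.44 (interval 0.33 to 0.54). REL differed by 0.27 (interval -0.24 to 0.77). Of the 5 subunits RELB alone passed the threshold.

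Feedback inhibitors other than NFKBIA also differed. TNFAIP3, which encodes the deubiquitinase A20, was at 24.8 to 30.2 CPM at 7 days and at 12.6 to 13.2 CPM in the knockdown (1.06, SE 0.09). NFKBIZ, which encodes the nuclear IκBζ, was at 51.7 to 60.8 and at 17.9 to 21.3 CPM (1.52, SE 0.09), and the adaptor TRAF1 differed by 2.38 (SE 0.10). NFKBIE, which encodes IκBε, differed by 0.87 and the deubiquitinase CYLD by 0.89. In the knockdown 0 of the 23 genes were higher and 3 were lower than in untreated cells, beside 9 higher and 0 lower at 7 days. Of all genes tested 5.18% were higher and 7.53% lower in the knockdown, and 16.7% and 14.4% at 7 days. The 3 lower genes were the targeted NFKBIA (-1.36), TNFAIP3 (-0.52) and RELB (-0.51). Without untreated replicate 5 TNFAIP3 was not called (-0.42), and 8 genes were higher at 7 days, since NFKB2 moved from 0.55 to 0.49.

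Among 42 NF-κB target genes tested, 27 were higher (64.3%, beside 15.8% of all genes tested) and 2 lower (4.76%, beside 9.89%) at 7 days, with a median of 0.79. BIRC3, which encodes the apoptosis inhibitor cIAP2, was at 95.5, 107, 107, 101 and 95.2 CPM at 7 days and at 18.9, 17.9, 19.9, 22.2 and 17.9 CPM in the knockdown. This was a difference of 2.39 (SE 0.09, adjusted p = 2.7e-15, edgeR), and the untreated mean of 31.96 CPM lay between the groups. BCL2A1, an anti-apoptotic BCL2 relative, was at 8.19 to 8.7 and at 0.921 to 1.33 CPM (2.90, SE 0.17). The acute phase genes SAA1 and SAA2, a pair of close paralogs that may share reads, differed by 3.25 and 3.16, PTX3 by 1.92 and the adhesion receptor CD44 by 1.89. The 2 lower genes were MMP13 and TNFAIP2, the latter at 0.67 to 1.18 CPM at 7 days and 1.24 to 1.67 CPM in the knockdown (-0.62). TNFAIP2 did not pass the test within lane 5 (-0.71). Against untreated cells 25 targets were higher and 3 lower at 7 days, and 6 were higher and 8 lower in the knockdown, where 5.18% and 7.53% of all genes tested were called. The medians were 0.86 and -0.06. Without untreated replicate 5 the counts were 23 and 3 at 7 days and 5 and 7 in the knockdown, with medians of 0.79 and 0.0720.

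**Figure D4:**
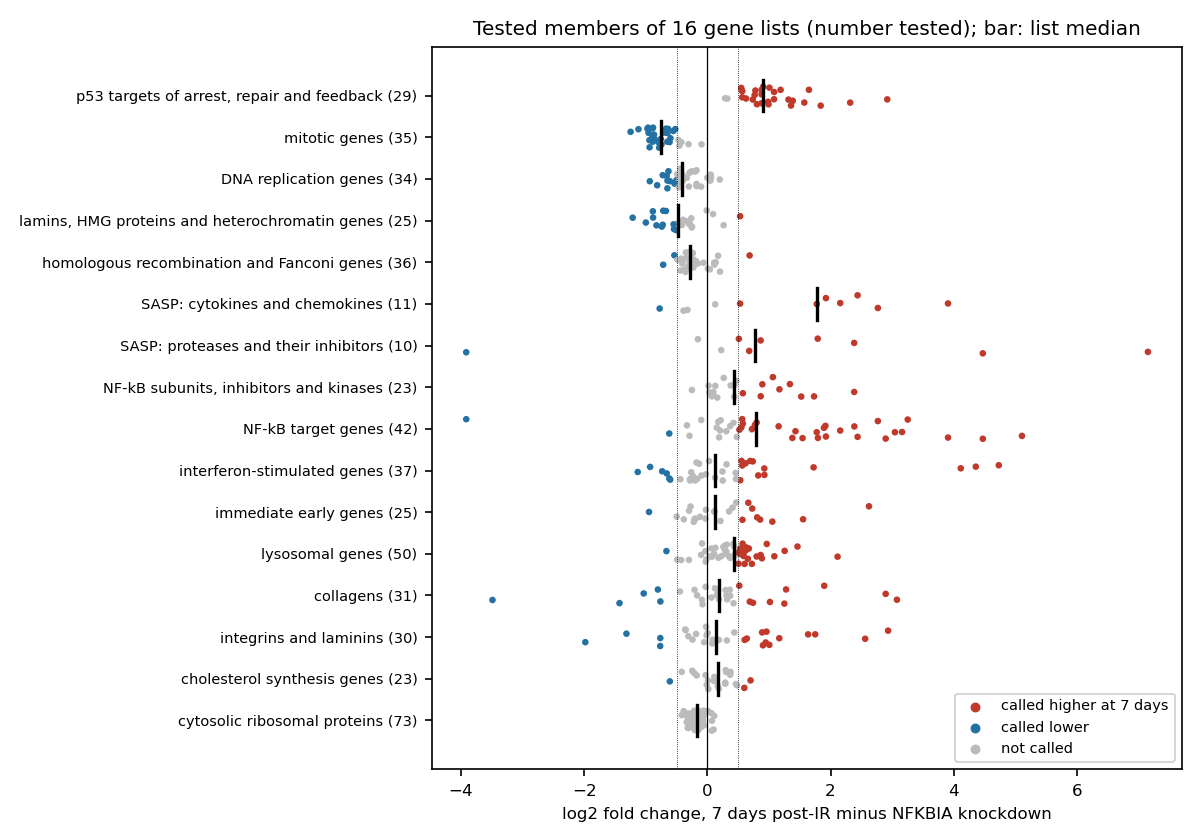
Log2 fold change of 7 days post-IR minus NFKBIA knockdown (horizontal axis) for the tested members of 16 gene lists, coloured by call, with the list median as a bar and the threshold of 0.5 dotted. The p53, SASP cytokine and NF-kB target lists lie mostly to the right and the mitotic list to the left, whereas the ribosomal proteins stay within the threshold.

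The SASP genes were taken from a published list of SASP factors that the study applied to intestinal tissue of mice. Of 16 listed cytokines and chemokines 11 were tested. At 7 days 7 were higher (63.6%) and 1 was lower (9.09%), beside 15.8% and 9.89% of all genes tested. Their median was 1.78. Requiring 10 counts in every library, which removes members near 0 in one group, left a median of 0.34. Against untreated cells 8 were higher and 1 lower at 7 days, and 4 were higher and 0 lower in the knockdown. Without untreated replicate 5 these counts were 9 and 1, and 3 and 1. Among all genes tested 16.7% were higher and 14.4% lower at 7 days, and 5.18% and 7.53% in the knockdown. CXCL8, which encodes the neutrophil attractant IL-8 and was taken from the NF-κB list, was at 51.9, 44.6, 67.4, 56.4 and 59.2 CPM at 7 days and at 6.59, 6.55, 7.32, 5.46 and 7.9 CPM in the knockdown. It differed by 3.04 (SE 0.14, adjusted p = 1.05e-13, edgeR). The knockdown was itself above untreated cells by 0.60, which was called, and by 0.48 without untreated replicate 5, which was not. IL6 was low in all groups, at 1.55, 1.61, 1.59, 2.4 and 1.72 CPM at 7 days and 0.147, 0.425, 0.0897, 0.22 and 0.425 CPM in the knockdown. The libraries did not overlap, and the difference was 2.77 (SE 0.35), or 3.65 within lane 5. The untreated mean was 0.317 CPM and no rise was called in the knockdown (-0.14).

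IL1A, an alarmin upstream of much of the SASP, was 1 of the 4 listed cytokines called higher in the knockdown than in untreated cells. It was at 9.33, 8.21, 11.2, 10.3 and 9.49 CPM at 7 days, at 1.71, 1.43, 2.63, 2.42 and 2.76 CPM in the knockdown and at a mean of 0.498 CPM in untreated cells. Both groups were thus above untreated cells, by 4.23 and 2.08 on the log2 scale, and 7 days exceeded the knockdown by 2.16 (SE 0.15, adjusted p = 1.43e-10, edgeR). IL1B had 86 counts in all at 7 days and 5 in the knockdown, a ratio of 16.8 (95% interval 6.91 to 52.9, counting error only). The neutrophil attractant CXCL3 differed by 1.93 (SE 0.19), the lymphocyte attractant CCL20 by 1.78 (SE 0.14) and the colony-stimulating factor CSF2 by 2.44 (SE 0.36). CCL26, an eosinophil attractant, was the one member of this list that was lower at 7 days, at 5.74 to 6.9 CPM against 9.84 to 11.5 CPM in the knockdown (-0.77, SE 0.15), where it was also above untreated cells (1.26). CXCL1 had 0 counts in both groups, which at this depth allows up to 3 counts per library, and CXCL2 had 6 counts in all at 7 days and 0 in the knockdown.

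CCL2, a monocyte attractant, gave a different order. It was at 47.5, 37.1, 59.7, 45.7 and 42.1 CPM at 7 days and at 16.7, 16.4, 17.7, 17.4 and 18 CPM in the knockdown (1.43, SE 0.11). Its untreated mean was 39.5 CPM, so that the difference of the groups went with a lower level in the knockdown (-1.19) and no called change at 7 days (0.24).

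Proteases of the SASP showed large contrasts in both directions. Of 10 proteases and inhibitors tested 7 were higher (70%) and 1, MMP13, was lower (10%) at 7 days. The shares of all genes tested were 15.8% and 9.89%. MMP3, stromelysin-1, was at 6.41, 8.21, 7.35, 10.5 and 11.3 CPM at 7 days and at 0.412, 0.394, 0.598, 0.183 and 0.319 CPM in the knockdown (4.47, SE 0.25, adjusted p = 2.32e-12, edgeR). MMP1, interstitial collagenase, from the NF-κB list, had 127 and 3 counts in all, a ratio of 41.2 (95% interval 13.8 to 203.0). MMP10, stromelysin-2, differed by 2.38 (SE 0.27), or by 3.28 within lane 5. Collagenase transcripts thus went in opposite directions, with MMP1 higher at 7 days and MMP13 higher in the knockdown. CTSB, the lysosomal protease cathepsin B, was at 3380 to 3720 CPM at 7 days, at 1820 to 2160 CPM in the knockdown and at a mean of 824.9 CPM in untreated cells. The knockdown thus held an intermediate level of CTSB, 1.25 above untreated cells and 0.87 (SE 0.07) below 7 days.

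Growth factors and receptors of the SASP list were counted in the same way. Of 9 growth factors and binding proteins tested, 3 were higher (33.3%) and 1 was lower (11.1%), beside 15.8% and 9.89% of all genes tested. Their median was 0.07 (0.22 within lane 5) and depended on which library was left out, as given below. Of 9 receptors, adhesion and matrix genes 4 were higher (44.4%) and 0 lower, with a median of 0.23 (0.41 within lane 5). NRG1, a ligand of the ERBB receptors, was at 21.1 to 30.4 CPM at 7 days and at 2.82 to 4.1 CPM in the knockdown (3.01, SE 0.15). IGFBP7, a secreted IGF-binding protein, was at 71.7 to 80.4 CPM and at 17.4 to 20.4 CPM (1.99, SE 0.08), but its untreated mean was 75.6 CPM. FN1, fibronectin, was at 8980, 8240, 8100, 7810 and 7540 CPM at 7 days and at 1700, 1990, 1850, 2410 and 1960 CPM in the knockdown (2.04, SE 0.17, adjusted p = 1.1e-09, edgeR), with 4671 CPM in untreated cells. The level in untreated cells lay between the groups for FN1 and beside the 7 days group for IGFBP7. ICAM1, an adhesion molecule induced by NF-κB in many cells, was at 0.556 to 0.98 CPM at 7 days and at 0.546 to 0.815 CPM in the knockdown (0.19, interval -0.24 to 0.62). IGFBP3 had 11 and 2 counts in all and was not tested.

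**Figure D5:**
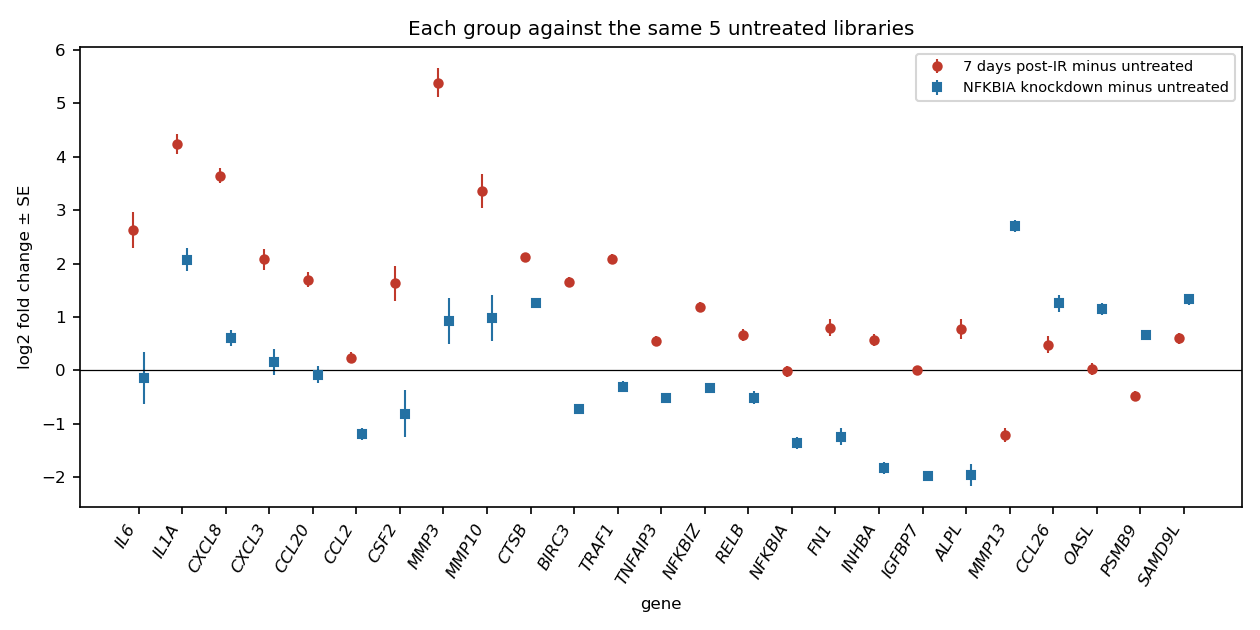
Log2 fold change with its SE (vertical axis) of 7 days post-IR (circles) and of NFKBIA knockdown (squares) against the same 5 untreated libraries for 25 genes named in the text. IL1A and CTSB are above 0 in both, CCL2, FN1, INHBA, IGFBP7 and ALPL are below 0 in the knockdown, and MMP13, CCL26, OASL, PSMB9 and SAMD9L are higher in the knockdown than at 7 days.

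Of 32 other regulators linked to the SASP, 5 were higher (15.6%) and 1 was lower (3.12%), beside 15.8% and 9.89% of all genes tested. INHBA, which encodes a subunit of activin A, was at 134 to 157 CPM at 7 days and at 26.0 to 29.6 CPM in the knockdown (2.41, SE 0.11), with 98.4 CPM in untreated cells. BMP2 differed by 1.81 (SE 0.10) and the Notch ligand JAG1 by 0.85 (SE 0.05), and TGFB3 fell by 0.73 (SE 0.07). CEBPB (0.38) and NOTCH1 (0.49) were under the threshold, and within lane 5 both passed it (0.50 and 0.66).

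Interferon-stimulated genes went both ways. Of 37 tested, 13 were higher (35.1%, beside 15.8% of all genes tested) and 6 were lower (16.2%, beside 9.89%) at 7 days, with a median of 0.13. The median was 0.0332 without 7 days replicate 2 and turned to -0.0138 when 10 counts were required in every library. RSAD2, which encodes the antiviral enzyme viperin, was at 1.0 to 1.52 CPM at 7 days and at 0 to 0.147 CPM in the knockdown (4.36, SE 0.35), OAS2 differed by 4.11 (SE 0.39) and PYHIN1, a DNA-binding IFI16 relative, by 4.73 (SE 0.23). In the one knockdown library of lane 5, RSAD2 had 0 counts and OAS2 was at 0.0294 CPM, and OAS2 differed by 6.02 within that lane. PYHIN1 was called higher in the knockdown than in untreated cells too (2.21), at 0.106 to 0.182 CPM. OASL was at 6.12 to 7.14 CPM at 7 days and at 14.1 to 15.8 CPM in the knockdown (-1.13, SE 0.11, adjusted p = 1.1e-08, edgeR). SAMD9L, at 25.7 to 31.7 and 44.3 to 53.8 CPM, fell by 0.73 (SE 0.10), and IFIT1 fell by 0.93 (SE 0.09). OASL and SAMD9L were above untreated cells in the knockdown by 1.15 and 1.33, whereas IFIT1 was close to untreated cells there and lower at 7 days. MX1 was not called (-0.16, interval -0.48 to 0.16). Against untreated cells 18 of the genes were higher and 2 lower at 7 days, and 11 were higher and 0 lower in the knockdown. Of all genes tested 16.7% and 14.4% were called at 7 days and 5.18% and 7.53% in the knockdown. Without untreated replicate 5 these counts were 17 and 1, and 10 and 0. For HLA class I antigen presentation 3 of 19 genes were higher (15.8%, the share of all genes tested) and 1 was lower (5.26%, beside 9.89%). HLA-B, 1 of the 3 (0.52), was just under the threshold within lane 5 (0.497). PSMB9, an immunoproteasome subunit, was the lower one, at 6.99 to 9.49 CPM at 7 days and 16.6 to 18.3 CPM in the knockdown (-1.15, SE 0.09).

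Lysosomal genes were higher at 7 days in part. Of 50 tested 22 were higher (44%, beside 15.8% of all genes tested) and 1 was lower (2%, beside 9.89%), with a median of 0.43. ACP5, tartrate-resistant acid phosphatase, was at 0.859 to 1.48 CPM and at 0.182 to 0.294 CPM (2.11, SE 0.23), cathepsin S (CTSS) differed by 1.46 (SE 0.18) and IDUA, an enzyme of glycosaminoglycan breakdown, by 1.25 (SE 0.11). GLB1, which encodes the β-galactosidase behind the senescence stain, was at 136 to 147 CPM at 7 days and at 123 to 126 CPM in the knockdown, a difference of 0.18 (interval 0.09 to 0.28) that stayed under the threshold. Against untreated cells 32 lysosomal genes were higher at 7 days (29 without untreated replicate 5) and 7 in the knockdown, with 0 lower in either, beside 16.7% and 5.18% of all genes tested called higher.

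In the BCL2 family 5 of 16 genes were higher (31.2%, beside 15.8% of all genes tested) and 1 was lower (6.25%, beside 9.89%). The lower gene was BMF, a pro-apoptotic BH3-only gene, at 4.15, 3.75, 4.47, 3.56 and 3.8 CPM at 7 days and at 23.1, 20.5, 24.3, 24.1 and 24.3 CPM in the knockdown (-2.56, SE 0.07, adjusted p = 6.59e-17, edgeR). The pro-apoptotic BID and BIK were higher by 1.05 and 1.18. Of 25 immediate early genes 8 were higher (32%) and 1, KLF4, was lower (4%), with FOSB (2.62, SE 0.25), ATF3 (1.55, SE 0.09) and the phosphatase DUSP1 (1.05, SE 0.08) at the top. KLF4 did not pass the test within lane 5 (-0.94). EGR1 was not called (0.11, interval -0.35 to 0.57).

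Of 31 collagens 9 were higher (29%) and 5 lower (16.1%), and of 30 integrins and laminins 12 were higher (40%) and 4 lower (13.3%), beside 15.8% and 9.89% of all genes tested. COL17A1, a hemidesmosomal collagen, was at 53.7 to 63.1 CPM at 7 days and at 6.13 to 7.59 CPM in the knockdown (3.08, SE 0.09). COL1A1, type I collagen, was at 1330 to 1540 CPM and at 576 to 657 CPM (1.25, SE 0.07), both below the untreated mean of 1974 CPM. COL5A2 fell by 1.03 (SE 0.06). LAMA3, the laminin α3 chain, was at 13.5 to 15.9 CPM at 7 days and at 2.23 to 2.97 CPM in the knockdown (2.56, SE 0.13), with an untreated mean of 13.8 CPM. ITGA9 differed by 2.93 and did not pass the test within lane 5 (1.83). The collagen receptor subunit ITGA2 differed by 1.75 (SE 0.15), and the vitronectin receptor subunit ITGB3 fell by 1.98 (SE 0.16). Fibrillar collagens were thus split, with COL1A1 higher and COL3A1 and COL5A2 lower at 7 days.

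Cholesterol synthesis and ribosomal genes differed little between the groups. Of 23 cholesterol genes tested 2 were higher (8.7%, beside 15.8% of all genes tested) and 1 was lower (4.35%, beside 9.89%). Their median was 0.17, and 0.0201 within lane 5. Both groups were below untreated cells, with 16 genes lower at 7 days and 19 in the knockdown (16 and 20 without untreated replicate 5). Among all genes tested 14.4% and 7.53% were lower in these contrasts. HMGCS1, the synthase that precedes the rate-limiting reductase, was at 156 to 180 CPM at 7 days and at 98.2 to 110 CPM in the knockdown (0.70, SE 0.10). MSMO1, the other higher gene (0.60), was under the threshold within lane 5 (0.40). Of 73 cytosolic ribosomal protein genes 0 were called in either direction, and their median was -0.18 (-0.29 within lane 5). They took 3.57 to 3.86% of the counts at 7 days and 3.81 to 4.38% in the knockdown.

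Markers of the cell line and of other cells were checked last. Of 14 osteoblast markers 10 were tested. At 7 days 6 were higher (60%) and 1 was lower (10%), beside 15.8% and 9.89% of all genes tested. Their summed level was 2900 to 3320 CPM at 7 days, 2890 to 3050 CPM in the knockdown and 4120 to 4900 CPM in untreated cells. DLX5 had 0 counts, and SP7 and IBSP had 3 or fewer in each library of both groups. ALPL, bone-type alkaline phosphatase, was at 41.2 to 55.1 CPM at 7 days and at 5.8 to 7.44 CPM in the knockdown (2.73, SE 0.20), SPP1, osteopontin, differed by 2.77 (SE 0.11), and SPARC fell by 0.76 (SE 0.05). RUNX2, the lineage factor, was at a mean of 105.1 and 105.5 CPM. The 12 blood cell markers summed to 30.2 to 35.0 CPM at 7 days, 7.68 to 9.6 CPM in the knockdown and 4.68 to 11.9 CPM in untreated cells. Of 4 tested, CD68 (3.23, SE 0.24) and PTPRC (1.92, SE 0.23) were higher (50%) and 0 were lower, beside 15.8% and 9.89% of all genes tested. CD68 is also a lysosomal protein and made up most of the sum at 7 days, at 20.9 to 25.6 CPM. The lymphocyte markers CD3E and NKG7 and the haemoglobin gene HBB had 3 counts or fewer in each library of both groups. The monocyte markers CD14 and LYZ, too low to be tested, had 61 and 13 counts in all at 7 days and 11 and 3 in the knockdown. The part of other cells in the results above was not tested. The 10 epithelial and endothelial markers in the table summed to 661 to 693 CPM and 636 to 707 CPM. Of 8 tested, 1 was higher and 5 were lower at 7 days than in untreated cells, and 0 and 4 in the knockdown (0 and 5 in the knockdown without untreated replicate 5). Among all genes tested 16.7% and 14.4% were called at 7 days, and 5.18% and 7.53% in the knockdown. Against the knockdown, 5 were higher (62.5%) and 1 was lower (12.5%) at 7 days, beside 15.8% and 9.89% of all genes tested. CDH1, 1 of the 5 (1.29), did not pass the test within lane 5 (0.81).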

How the data were processed

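The authors deposited one table of raw read counts for 20314 genes in 20 libraries, made from stranded mRNA libraries sequenced as single reads. The submitters' processing notes name bcl2fastq, Trimmomatic, STAR 2.4.2a and the genome build hg19. The counting tool, annotation and strand setting are not given in the sources used here. Reads of overlapping genes can therefore be counted for each other. This bears on named genes that overlap others, among them CDKN1A, MDM2, IL6, MMP1, MMP3, FAS and SERPINB2.

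The analysis used edgeR 4.0.16 under R 4.3.3. Genes were kept by filterByExpr with a minimum count of 10 (14992 genes), scaled by TMM and fitted in 1 quasi-likelihood model over all 20 libraries in which group was the only term. Benjamini-Hochberg adjustment ran over all genes tested, and standard errors and 95% intervals were computed from the F statistic. For each gene all groups share 1 estimate of spread, so that untreated replicate 5 enters these in every contrast of this fit. Named genes were tested in addition by exact two-sided permutation of 5 libraries against 5. Its smallest p of 0.00794 was reached by each named gene whose libraries did not overlap. Levels are CPM with TMM scaling, and log2 CPM used a prior count of 2. On simulated counts with 14992 genes for this contrast, 90 of 100 genes changed by a log2 of 1 and 95 of 100 changed by 2 were recovered, with 7 false calls. Each count column belongs to a library used here, a further column gives gene length, and 1679 genes had no symbol.

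Named genes were NFKBIA, the 10 largest called changes in each direction among non-overlapping genes of at least 1 CPM in the higher group, up to 3 called members in each direction of each list, and a fixed set of senescence, SASP and NF-κB genes. Values are printed for a part of these 147 genes, and 2 listed genes are not reported here. Further list members are named where a count of calls turns on them or where they illustrate a list, and these were chosen after their values were seen. Members and lists were chosen with earlier results of these data known. Of 733 listed symbols 693 were in the table, matched by current or older names. The study describes the untreated and irradiated libraries as biological replicates. The sources used here do not say so of the knockdown libraries, whose spread may be technical. The numbers did not pair the libraries: the correlation of same-numbered deviations from the group means lay between -0.0367 and 0.00775. Alternatives covered scaling, filters, DESeq2 1.42.0, the replicate block, lanes, thresholds and leaving out each library. Leaving out untreated replicate 5 from the contrasts with untreated cells was added after the data were seen. Promoters were searched in Python and figures drawn with matplotlib.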

Additional observations from a re-analysis of the deposited data

Results flagged for a closer look

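In groups of 5 libraries, a library was marked where its gap to the nearest other exceeded Dixon's 95% critical value of 0.71 as a share of the group's range. This held for 11 of 292 combinations of a named gene and a group, beside about 1 in 20 that chance gives. At 7 days GDF15 was low in replicate 1 (38.5 CPM, others 48 to 51.7), and IL6 was high in replicate 4 (2.4 CPM, others 1.55 to 1.72). LCE1C was high in replicate 2 (2.4 CPM, others 1.58 to 1.77), and MCM6 was high in replicate 1 (72.2 CPM, others 67.1 to 68.2). Replicate 3 at 7 days was high for CSF2 (3.32 CPM, others 1.54 to 2.04) and for ALPL (55.1 CPM, others 41.2 to 44.6). In the knockdown, replicate 4 was marked for 4 genes, with MDM2 at 209 CPM (others 192 to 195), OASL at 15.8 CPM (others 14.1 to 14.4), PADI4 at 1.32 CPM (others 2.09 to 2.3) and IL36RN at 0.0367 CPM, where the others were at 0. PYHIN1 was high in knockdown replicate 2 (0.182 CPM, others 0.106 to 0.12). None of these genes lost its call when the marked library was left out.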

How the results depend on the processing

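The count of genes called higher was 2374 and moved to 1116 with a log2 fold change over 1. The count of genes called lower was 1483 and moved to 415 with that threshold and to 806 when the test was made against a log2 fold change of 0.5 (glmTreat). Both counts stayed within 1.5 times of these under the scalings, filters, DESeq2, lane and replicate block alternatives. With the replicate block 2371 genes were higher and 1486 lower, and the numbers of replicates did not pair the libraries. Leaving out 1 library gave 2275 to 2350 genes higher and 1464 to 1580 lower. None of the 147 named genes changed sign under any alternative in which it was tested (110 of them with 10 counts required in every library). Within lane 5 (3 libraries against 1, the lone knockdown library assumed to vary like the other groups) 8 of them lost and 2 gained a call, and with lane as a factor 9 lost and 1 gained a call. HLA-E, at the threshold, lost its call under each of the 3 other scalings and with DESeq2.

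Many list medians moved with lane. They are given here with lane as a factor and then within lane 5. They were -0.27 and -0.28 for G1 and S phase genes, -0.61 and -0.62 for CDK inhibitors, -0.45 and -0.46 for DNA replication, -0.24 and -0.25 for histones and -0.50 and -0.51 for lamins and HMG proteins. For SASP lists they were 0.88 and 0.87 (proteases), 0.23 and 0.22 (growth factors) and 0.42 and 0.41 (receptors), with 1.67 for cytokines within lane 5. They were 1.05 and 1.05 for NF-κB targets, 0.10 and 0.0889 for HLA class I, 0.23 and 0.22 for immediate early genes, 0.21 and 0.20 for integrins and laminins, 0.0282 and 0.0201 for cholesterol synthesis and -0.28 and -0.29 for ribosomal proteins. Marker lists gave 0.37 and 0.36 (osteoblast), 1.10 and 1.09 (blood) and 0.42 and 0.0053 (epithelial and endothelial), and the BCL2 family 0.18 within lane 5. The cause was not tested.

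A filter of 10 counts in every library, which removes genes near 0 in one group, left medians of 0.34 (SASP cytokines), 0.52 (proteases), 0.41 (receptors), 0.59 (NF-κB targets), 0.49 (blood) and 0.0912 (epithelial and endothelial), and turned that of interferon-stimulated genes to -0.0138. With libraries of the 2 groups alone the medians were 0.16 for immediate early genes, 0.0855 for integrins and laminins and 0.57 for epithelial and endothelial markers. Leaving out 1 library gave 0.88 to 0.91 for p53 targets, -0.23 to -0.18 for G1 and S phase genes, -0.82 to -0.76 for CDK inhibitors, -0.78 to -0.73 for mitotic genes, -0.17 to -0.0895 for histones, -0.52 to -0.48 for lamins and HMG proteins, -0.31 to -0.27 for recombination genes, 0.0170 to 0.13 for SASP growth factors and 0.40 to 0.43 for NF-κB subunits. It gave 0.0332 to 0.13 for interferon-stimulated genes, 0.39 to 0.43 for lysosomal genes, and 0.53 to 0.67, 1.15 to 1.26 and 0.66 to 0.82 for osteoblast, blood and epithelial markers.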

Other observations

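Of 2858 abundant genes, at 100 CPM or more in the higher group, 321 (11.2%) were called higher and 206 (7.21%) lower at 7 days, beside 15.8% and 9.89% of all genes tested. The genes below were chosen after their values were seen, among those with large changes, and do not include every gene of like size. ESM1, which encodes the secreted proteoglycan endocan, was at 101, 88.6, 101, 102 and 112 CPM at 7 days and at 4.12, 4.37, 4.27, 3.81 and 3.79 CPM in the knockdown (4.63, SE 0.08, adjusted p = 7.62e-20, edgeR). KISS1, the precursor of kisspeptin, was at 170 to 256 CPM and at 16.6 to 19.3 CPM (3.55, SE 0.16), with an untreated mean of 55.4 CPM between them. FAP, a surface protease of activated fibroblasts, differed by 2.18 (SE 0.07), and the protease inhibitor A2M by 2.41 (SE 0.12).

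Abundant genes that were lower at 7 days were named in the same way. PHGDH, the first enzyme of serine synthesis, was at 104, 110, 101, 107 and 109 CPM at 7 days and at 396, 387, 409, 344 and 405 CPM in the knockdown (-1.87, SE 0.22), with 311.4 CPM in untreated cells. ASNS, asparagine synthetase, fell by 1.41 (SE 0.41) and ASS1, argininosuccinate synthase, by 1.62 (SE 0.16). SREBF1, a factor of lipid synthesis genes, fell by 1.77 (SE 0.05). LOXL4, a lysyl oxidase that cross-links collagen, was at 194 to 218 CPM at 7 days and at 1030 to 1070 CPM in the knockdown (-2.36, SE 0.07), on either side of the untreated mean of 469.3 CPM. RAB8B and BET1L, which act in vesicle transport, were close to untreated cells at 7 days (differences of 0.00 and 0.11 on the log2 scale) and above them by 1.89 and 1.84 in the knockdown.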
